A study of Mus musculus with 16 samples.

Results

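A set of 8 genes of B cells and plasma cells were followed in the tumor RNA of 16 mice with liver metastasis: Cd79a, Cd79b, Ms4a1, Cr2, Fcer2a, Pax5, Jchain and Mzb1. They were chosen by name, as 8 of the 21959 genes listed in the count tables, and 7 of them passed the filter on low counts that left 13968 genes for testing. Mzb1 did not pass, with 40 counts over all mice. All animals were male wild-type C57BL/6 mice, 6 weeks old when MC38 cells, a mouse colon adenocarcinoma line, were injected into the spleen. Control mice received neither agent. The SB525334 group was given the ALK5 (TGF-β receptor I) inhibitor SB525334 by gavage at 20 mg/kg daily, the KN046 group was given the antibody KN046 intraperitoneally at 10 mg/kg, and the combination group was given both, with 4 mice in each group. The host kept its own immune system, and the piece of tissue sequenced was bulk tumor, so fewer cells of a type and less RNA per cell cannot be told apart.

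B cells recognize antigen through a surface immunoglobulin that signals through the Cd79a and Cd79b chains, and their identity is held by the transcription factor Pax5. When they become plasma cells they switch this program off and secrete antibody, and the J chain, encoded by Jchain, links secreted IgM and IgA into polymers. B cells are gathered in lymphoid tissue by the chemokine Cxcl13, the ligand of Cxcr5. None of the immunoglobulin or T cell receptor genes was analysed here, since 0 genes of those biotypes were in the tables used, so antibody transcripts themselves are not part of these results.

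Total counts per mouse lay between 18368994 and 23877131. Most of the genes described sit at about 1 CPM (counts scaled to a common library size), so counts are given beside the low values. The libraries of control mice 1 and 2, and of control mice 3 and 4, stood near each other: the median chi-square per gene was 1.3 and 0.96, against 2.88 to 17 in the other pairs. The comparisons with control were therefore repeated with each of these pairs merged, and calls lost that way are named. For KN046 against control, 0 of all tested genes were called by edgeR with the pairs merged, against 559 with 4 control mice, so every call named in that comparison is lost there. RNA of other cell types differed between groups. The summed level of 10 hepatocyte genes was 16100 to 19800 CPM in control mice, 654 to 2320 in SB525334 mice, 10100 to 20800 in KN046 mice and 71.2 to 92.1 in combination mice. Its part in the results on B cell genes was not tested.

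The promoters of Cd79a and Jchain are shown because their levels differed between mice in separate ways, Cd79a with high values in combination mice 1 and 4 and Jchain with low values in KN046 mice. Each sequence is the 250 bases before the start of the Ensembl canonical transcript (GENCODE M39, GRCm39), written 5′ to 3′ on the strand of the gene. They lie at chr7:24596490-24596739 (plus strand) and chr5:88675751-88676000 (minus strand).
Cd79a: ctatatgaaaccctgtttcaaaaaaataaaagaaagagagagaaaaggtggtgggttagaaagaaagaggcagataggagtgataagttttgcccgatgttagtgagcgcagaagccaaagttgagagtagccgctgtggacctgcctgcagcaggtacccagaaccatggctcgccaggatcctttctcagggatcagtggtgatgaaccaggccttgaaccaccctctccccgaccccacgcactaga
Jchain: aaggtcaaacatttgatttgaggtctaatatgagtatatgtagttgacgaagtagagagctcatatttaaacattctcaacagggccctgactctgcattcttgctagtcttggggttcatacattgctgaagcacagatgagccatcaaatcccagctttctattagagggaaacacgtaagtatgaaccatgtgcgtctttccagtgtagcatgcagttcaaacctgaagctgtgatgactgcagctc
Both strands were searched for the EBF core CCCNNGGG, the octamer ATGCAAAT, the E-box CAGGTG and the ETS core GAGGAA. The octamer was in 1.5% of 21770 promoters of the same length, the EBF core in 12.9%, the E-box in 17.7% and the ETS core in 22.9%. Neither sequence shown held a match, so neither has capitals.

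Expressed per length as TPM (counts scaled for merged exon length and library size), Jchain was the most abundant of the 8 genes in control tumors, with a mean of 16.6 TPM. Cd79a followed at 3.36 and Cd79b at 2.63, and the other 5 lay between 0.21 and 0.707. In KN046 mice the order differed, with Cd79a at 5.08, Cd79b at 4.69 and Jchain at 2.11 TPM. In combination mice the means were 44.5 for Jchain, 24.2 for Cd79a and 16.2 for Cd79b. These means are descriptions, since a mean over 4 combination mice rests largely on mouse 4.

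Cd79a (ENSMUSG00000003379, chromosome 7, 24596740 to 24601622), one of the signaling chains of the B cell receptor, was at 0.787, 1.33, 0.558 and 1.52 CPM in control mice 1 to 4. The SB525334 mice held 0.362, 0.955, 0.129 and 0.646 CPM, and the KN046 mice 1.12, 2.82, 1.34 and 0.883 CPM. The combination mice held 6.98, 1.05, 0.437 and 21.1 CPM, which is 136, 19, 8 and 447 counts. Combination mice 1 and 4 were above every other mouse, while mice 2 and 3 lay within the control range or below it. Cd79b (ENSMUSG00000040592, chromosome 11, 106202167 to 106205588), its partner chain, was at 0.875, 0.663, 0.609 and 0.941 CPM in control mice and at 3.85, 0.497, 1.36 and 12.9 CPM in combination mice. The SB525334 mice held 0.633, 1.39, 0.344 and 0.258 CPM of Cd79b, and the KN046 mice 0.959, 2.33, 1.34 and 0.727 CPM. Again combination mice 1 and 4 held the high values.

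**Figure D1:**
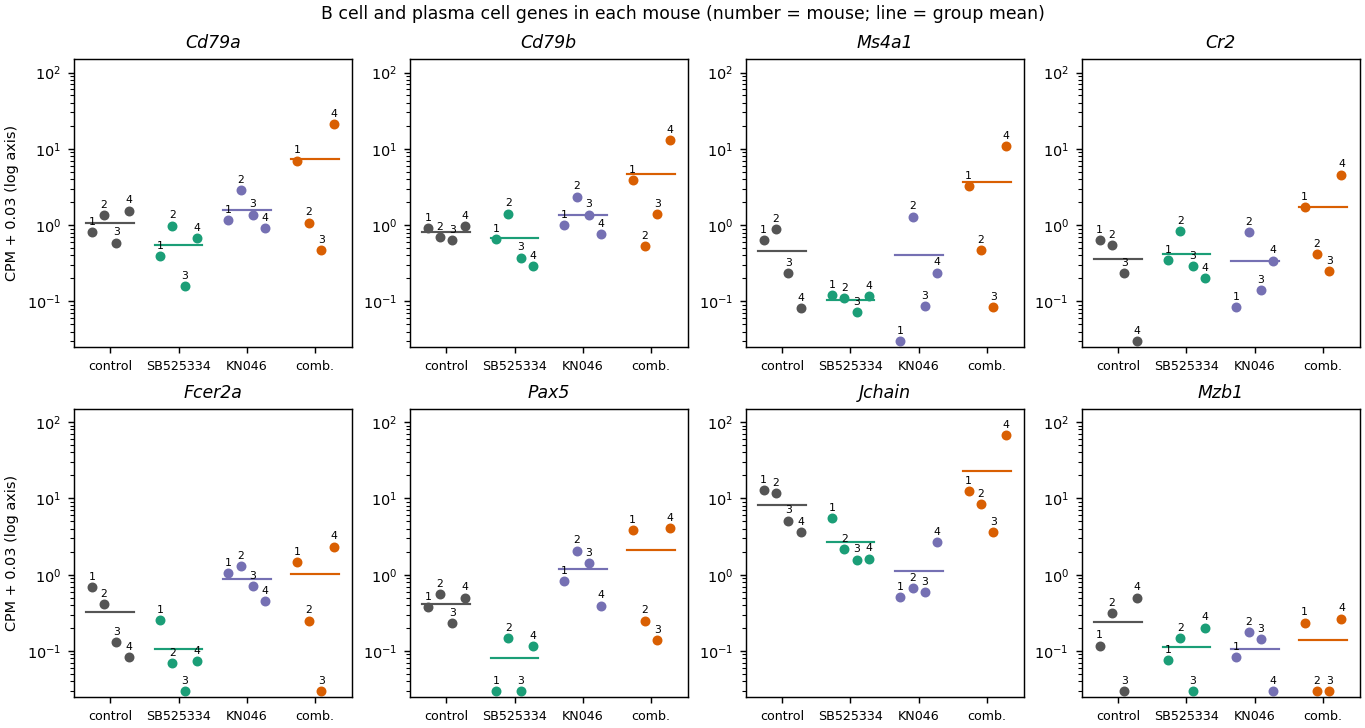
Level of the 8 genes in each mouse, as CPM plus 0.03 on a log axis; numbers are the mice, points are single mice and lines are group means. Combination mouse 4 is the highest combination mouse for all 8 genes, and KN046 mice hold the 3 lowest Jchain values.

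Ms4a1 (ENSMUSG00000024673, chromosome 19, 11227039 to 11243605), which encodes the B cell surface protein CD20, was at 14, 18, 4 and 1 counts in control mice and at 2, 2, 1 and 2 counts in SB525334 mice. KN046 mice held 0, 26, 1 and 4 counts. Combination mice held 63, 8, 1 and 229 counts, or 3.23, 0.441, 0.0546 and 10.8 CPM. Cr2 (ENSMUSG00000026616, chromosome 1, 194819119 to 194859091), the complement receptor of mature B cells and follicular dendritic cells, was at 1.69, 0.386, 0.218 and 4.57 CPM in combination mice and at 14, 11, 4 and 0 counts in control mice. SB525334 mice held 7, 20, 6 and 4 counts of Cr2, and KN046 mice 1, 16, 2 and 6. The 3 groups without the combination overlapped. Fcer2a (ENSMUSG00000005540, chromosome 8, 3731737 to 3744183), the low-affinity IgE receptor CD23, was at 15, 8, 2 and 1 counts in control mice, 5, 1, 0 and 1 in SB525334 mice and 19, 26, 12 and 8 in KN046 mice. Combination mice held 28, 4, 0 and 49 counts, or 1.44, 0.221, 0 and 2.31 CPM. The KN046 and SB525334 mice did not overlap in CPM for this gene.

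Pax5 (ENSMUSG00000014030, chromosome 4, 44524757 to 44710487) was at 8, 11, 4 and 9 counts in control mice and at 0, 3, 0 and 2 counts in SB525334 mice. Every SB525334 mouse was below every control mouse. KN046 mice held 0.799, 2.04, 1.4 and 0.364 CPM, and combination mice held 3.85, 0.221, 0.109 and 4.01 CPM. Mzb1 (ENSMUSG00000024353, chromosome 18, 35780319 to 35782642), a chaperone of antibody assembly, was at 2, 6, 0 and 9 counts in control mice, 1, 3, 0 and 4 in SB525334 mice, 1, 3, 2 and 0 in KN046 mice and 4, 0, 0 and 5 in combination mice. A difference in Mzb1 was not detectable at this depth. It overlaps the gene Gm50318 on the same strand, so its few reads are uncertain.

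Jchain (ENSMUSG00000067149, chromosome 5, 88667668 to 88675750) carried the most reads of the 8 genes, with 2915 counts over all mice. It was at 12.7, 11.6, 5.07 and 3.55 CPM in control mice 1 to 4 and at 5.47, 2.11, 1.55 and 1.59 CPM in SB525334 mice. KN046 mice held 0.48, 0.632, 0.559 and 2.65 CPM, that is 9, 13, 10 and 51 counts. Combination mice held 12.3, 8.33, 3.55 and 67.2 CPM. Every KN046 mouse was below every control mouse and below every combination mouse. The ratio of Jchain to Cd79a was 2.34 to 16.1 in control mice and 1.76 to 8.12 in combination mice, and it was 0.429, 0.224, 0.417 and 3 in KN046 mice.

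The first question was whether TGF-β receptor inhibition alone moved these genes. None of the 7 tested genes was called between SB525334 and control mice by edgeR's quasi-likelihood test, where 9.61% of all tested genes were called. DESeq2 also called 0, and 2 genes, Pax5 and Jchain, had an unadjusted p under 0.05. Of the 7, 6 had fitted values below 0, and the median log2 fold change was -1.63, against 0.00 over all tested genes. For Pax5 the log2 fold change was -2.73 ± 1.22 (SE, n = 4 and 4), with an edgeR adjusted p of 0.225 and a range of 0.0753 to 0.417 over the alternatives. Groups that do not overlap were found for 18.3% of all tested genes in this comparison. Over all 4 mice of each group the counts of Pax5 were 32 and 5, a ratio of control to SB525334 of 7.24 with a 95% exact counting interval of 2.8 to 23.8. For Ms4a1 the counts were 37 and 7, a ratio of 5.98 with an interval of 2.63 to 15.9. These intervals cover counting error only. Jchain had a log2 fold change of -1.63, with an edgeR adjusted p of 0.255.

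KN046 alone left the receptor and identity genes without a call, and it was Jchain that stood lowest. By edgeR, 0 of the 7 genes were called against control, where 4.0% of all tested genes were called. DESeq2 called 1, Jchain, and Jchain was also the gene with an unadjusted p under 0.05. Its log2 fold change was -2.92 ± 0.84 (SE, n = 4 and 4), with an edgeR adjusted p of 0.0589. Over the 17 alternatives this adjusted p ran from 0.0148 with DESeq2 to 0.248 with the control pairs merged, and it passed the threshold of 0.05 in 4 of them, among them without KN046 mouse 4. Groups that do not overlap were found for 11.6% of tested genes. Fcer2a and Pax5 had log2 fold changes of 1.45 and 1.56, with edgeR adjusted p-values of 0.349 and 0.291, and Cd79a had 0.56 with 0.726. As a share of Ptprc, the pan-leukocyte gene CD45, Cd79a was 5.26, 5.58, 5.73 and 2.93% in KN046 mice and 0.912, 1.52, 1.33 and 3.78% in control mice. These 2 ranges overlap, through control mouse 4 and KN046 mouse 4.

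Both B cell receptor chains were higher in the combination than in control mice. Cd79a had a log2 fold change of 2.82 ± 0.85 (SE, n = 4 and 4) with an edgeR adjusted p of 0.0373, and Cd79b had 2.59 ± 0.75 with 0.0297. Those 2 of the 7 genes were called, where 11.1% of all tested genes were called. The other 5 had log2 fold changes of 1.47 to 3.05, with edgeR adjusted p-values of 0.0908 to 0.281. The groups overlapped for all 7 genes, and groups that do not overlap were found for 17.4% of tested genes. The calls rested on few mice. Without combination mouse 4 the log2 fold changes were 1.44 for Cd79a and 1.31 for Cd79b, with edgeR adjusted p-values of 0.283 and 0.244. Then 0 of the 7 genes were called, and the same held without each control mouse in turn, with the control pairs merged and in a fit of these groups alone. Over 17 alternatives the adjusted p of Cd79a ran from 0.0057 to 0.296, that of Cd79b from 0.00242 to 0.244, and each passed the threshold in 8. Without combination mouse 4 the log2 fold change of Jchain was -0.03.

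**Figure D2:**
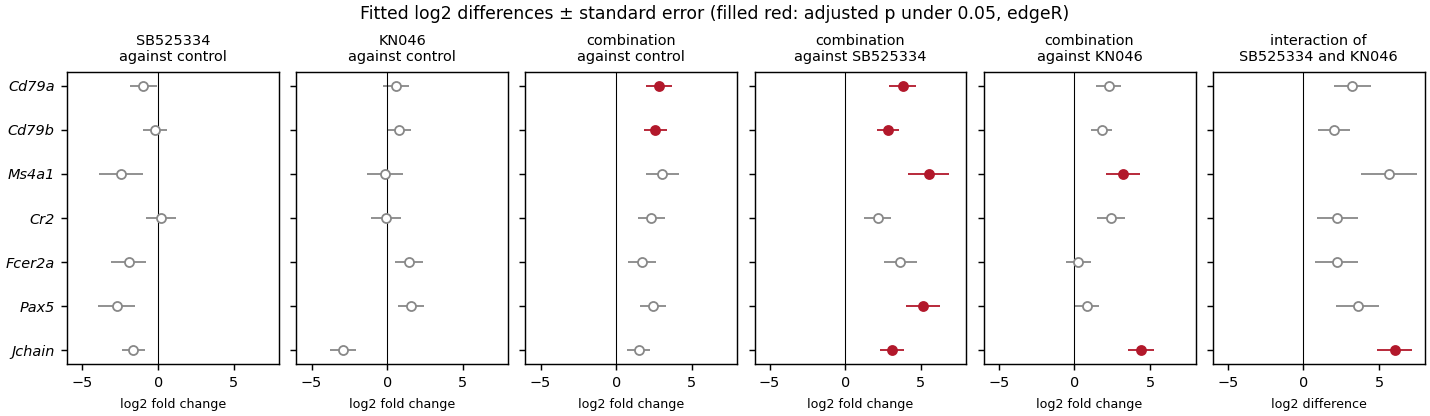
Fitted log2 fold changes of the 7 tested genes with their standard errors in 5 comparisons, and the interaction in the last panel; filled red points have an edgeR adjusted p under 0.05. Cd79a and Cd79b are filled in the combination against control, 5 genes are filled against SB525334, and Jchain alone is filled in the interaction, at 6.02.

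Against SB525334 alone, the combination was higher for 5 of the 7 genes, where 3.57% of all tested genes were called. The fit of these groups alone filtered low counts anew and called 0 of the genes it tested. Pax5, Ms4a1, Cr2 and Fcer2a have too few counts in these mice to pass that filter, so this fit says nothing on them. Limma called 1, Pax5. Ms4a1 had a log2 fold change of 5.50 ± 1.34 (SE, n = 4 and 4; edgeR adjusted p = 0.0232), Pax5 5.13 ± 1.10 (0.00839), Cd79a 3.80 ± 0.90 (0.0184), Jchain 3.10 ± 0.78 (0.0312) and Cd79b 2.81 ± 0.75 (0.0455). Cr2 had 2.14 and Fcer2a 3.64, with edgeR adjusted p-values of 0.365 and 0.0805. In the main fit Ms4a1 passed the filter on low counts only with the help of combination mice, where it is high. The call of Ms4a1 therefore adds no support beyond its levels. As counts over the 4 mice of each group, Ms4a1 was 301 against 7, with 229 and 63 in combination mice 4 and 1. The ratio was 52.2, with a 95% exact counting interval of 25 to 131. Pax5 was 166 against 5, with 85 and 75 in those mice, a ratio of 40.3 with an interval of 16.9 to 126. These intervals cover counting error only, not the spread between mice. The groups overlapped for all 7 genes, where 7.05% of tested genes had groups that do not overlap, since combination mouse 3 lay within or below the SB525334 range. Pax5 passed the threshold in all 15 alternatives in which it was tested. Without combination mouse 4 or SB525334 mouse 3, Pax5 was the 1 gene still called, and without SB525334 mouse 1, 2 or 4 the count was 2, 3 and 2.

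Against KN046 alone, the combination was higher for Jchain and Ms4a1, where 24.4% of all tested genes were called. Jchain had a log2 fold change of 4.39 ± 0.86 (SE, n = 4 and 4) with an edgeR adjusted p of 0.00128, and the groups did not overlap, as for 20.3% of tested genes. Ms4a1 had 3.2 ± 1.11 with an adjusted p of 0.0443, a call that was lost without combination mouse 4 and without KN046 mouse 1, 3 or 4, where Jchain was the 1 gene called each time. The call of Ms4a1 adds no support beyond its levels, since that gene passed the filter on low counts only with combination mice. A share of 2 in 7 is near the background of this comparison. Between the single agents, Fcer2a and Pax5 were lower in SB525334 than in KN046 mice, where 20.0% of all tested genes were called. The log2 fold changes were -3.38 ± 1.08 (edgeR adjusted p = 0.0366) and -4.29 ± 1.12 (0.0128), and neither pair of groups overlapped, as for 22.6% of tested genes. Here too 2 of 7 is near the background. The call of Fcer2a was lost without SB525334 mouse 2, 3 or 4 and without KN046 mouse 1, 2 or 3, where Pax5 was the 1 gene called each time.

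The interaction asks whether adding SB525334 acted alike in mice given KN046 and in mice not given it, and 4.28% of all tested genes were called. Jchain was called, at 6.02 ± 1.15 on the log2 scale (SE, 16 mice; edgeR adjusted p = 0.00477). Its SB525334 effect was -1.63 without KN046 and 4.39 with it. This call passed the threshold in all 24 alternatives, with adjusted p-values of 4.2e-05 to 0.0167, and so also without combination mouse 4. The other 6 genes had values of 2.01 to 5.65, with edgeR adjusted p-values of 0.1 to 0.47.

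Variation within the combination group was wide for these genes. The SD of log2 CPM over the 4 combination mice was 2.74 for Ms4a1 and 2.42 for Cd79a, against a median of 0.22 over all tested genes, and 0.0573% and 0.0859% of tested genes had an SD as large. Jchain had the narrowest of the 7, at 1.77. Combination mice 1 and 4 were both above mice 2 and 3 for each of these genes, a split read from their own values. In other lists that order was found for 17 of 19 tested B cell identity genes, 7 of 8 T cell genes and 1 of 10 hepatocyte genes, and for 23.5% of all tested genes. In KN046 mice, mouse 2 was the highest for 7 of the 8 genes.

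**Figure D3:**
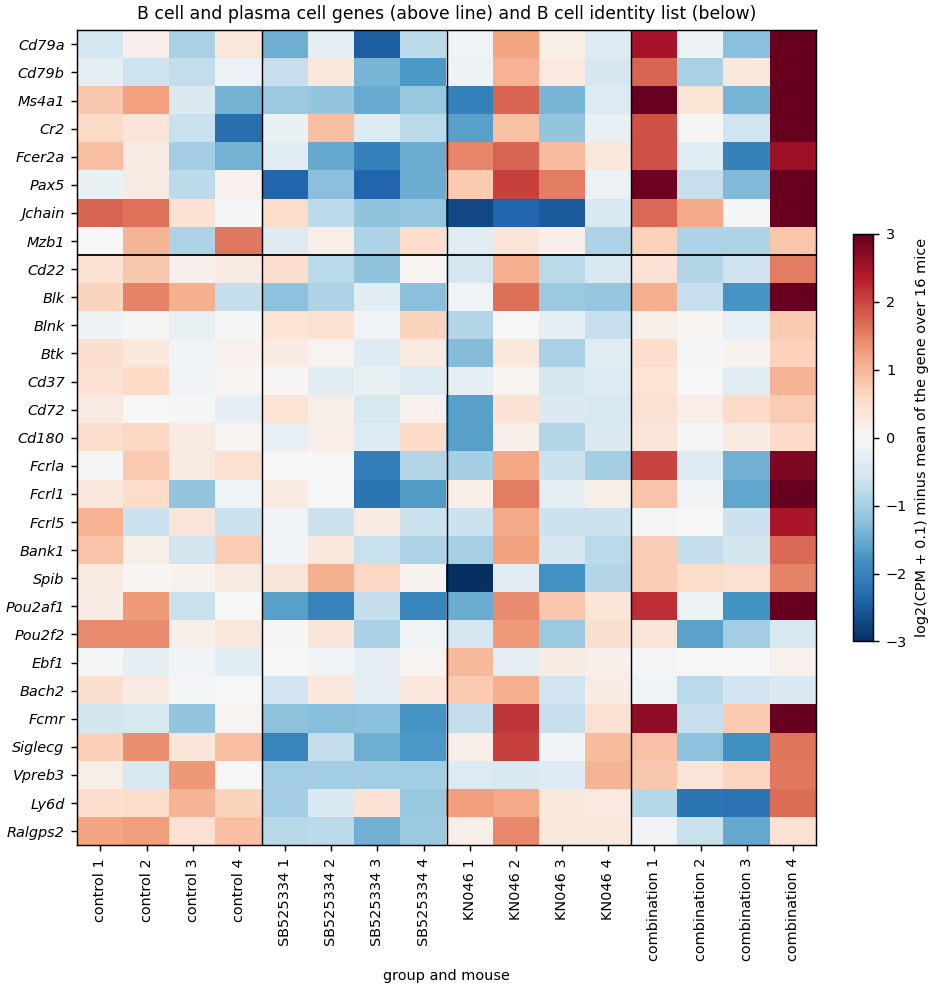
Log2(CPM + 0.1) of the 8 genes (above the line) and of B cell identity genes (below it) in the 16 mice, each gene centered on its own mean over the mice. The strongest red lies in combination mice 4 and 1, and Jchain is blue in KN046 mice 1 to 3.

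Other B cell genes were read from lists. Of 22 B cell identity and receptor signaling genes 19 were tested, and 2 fell with SB525334, a share near the 9.61% of all tested genes: Ralgps2 by 2.09 on the log2 scale (edgeR adjusted p = 0.00126) and Siglecg, an inhibitory lectin of B cells, by 2.74 (0.0287). With the control pairs merged Ralgps2 was still called and Siglecg was not (adjusted p = 0.0917). In the combination against control 0 rose and 1 fell, where 11.1% of all tested genes were called. It was Ralgps2, with a log2 fold change of -1.31 (edgeR adjusted p = 0.035, and 0.134 with the control pairs merged), and the list median was 0.20. Pou2af1, a B cell coactivator, rose in the combination against SB525334 by a log2 fold change of 4.61 (edgeR adjusted p = 0.0182), and was at 3.29, 0.552, 0.109 and 12.3 CPM in combination mice. Without combination mouse 4 its log2 fold change was 2.99 (edgeR adjusted p = 0.148).

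Of 15 plasma cell genes 14 were tested, and 1 was lower in each treatment against control: Ell2, an elongation factor, with SB525334 (log2 fold change -0.57, edgeR adjusted p = 0.00999) and with the combination (-0.46, 0.0415), and Slamf7 with KN046 (-1.56, 0.0275). With the control pairs merged none of these 3 calls remained, at edgeR adjusted p-values of 0.0625, 0.174 and 0.196. Of all tested genes 9.61%, 4.0% and 11.1% were called for SB525334, KN046 and the combination, so 1 of 14 is near these shares. The list medians were -0.13, -0.29 and -0.09 for SB525334, KN046 and the combination. Tnfrsf17, the plasma cell receptor BCMA, was highest at 0.142 CPM, in control mouse 2. Xbp1 and Sdc1, which other cell types also express, were at 126 to 173 and 113 to 168 CPM. Of 7 germinal center genes 3 were tested. None of these was called by edgeR against control in any group, and 0 had an unadjusted p under 0.05.

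Of 13 chemokine and lymphoid organization genes 9 were tested. Against control, 2 fell with SB525334 (Cxcl13 and Cxcl12), 3 fell with KN046 (Ltb, Cxcr4 and Gpr183), and with the combination 2 fell (Cxcl13 and Cxcl12) and 1 rose (Cxcr5). Of all tested genes, 9.61%, 4.0% and 11.1% were called in these comparisons. With the control pairs merged 2, 0 and 1 of the calls named here remained. Cxcl13 was at 5.73, 6.44, 6.29 and 6.58 CPM in control mice and at 0.0452, 0.0398, 0.043 and 0 CPM in SB525334 mice. As counts these were 517 and 3, a ratio of 195 with a 95% exact counting interval of 66.3 to 948, and edgeR's adjusted p was 1.0e-04. KN046 mice held 1.71, 2.72, 0.726 and 0.623 CPM, and combination mice 0.359, 0.0552, 0.0546 and 3.02 CPM, with mouse 4 again highest. Against control the combination was lower by a log2 fold change of -2.80 (edgeR adjusted p = 0.0182, and 0.0791 with the control pairs merged), and by -5.23 without combination mouse 4 (1.2e-05). Cxcl12, which retains plasma cells and precursors in marrow, fell by 1.83 with SB525334 (4.3e-06) and by 2.74 with the combination (1.9e-08) on the log2 scale. Cxcr5 rose in the combination, with a log2 fold change of 3.53 (edgeR adjusted p = 0.0492) and values of 0.976, 0.166, 0.109 and 5.0 CPM. Its call was lost with the control pairs merged (0.212) and without combination mouse 4, where the log2 fold change was 1.65 (0.397). Cxcr5 passed the filter on low counts only with combination mice 1 and 4, so its call adds no support beyond the levels. With KN046, Ltb had a log2 fold change of -1.79 (edgeR adjusted p = 0.0487, and 0.252 with the control pairs merged). Of 9 tested survival and help genes Cd40, the receptor for T cell help, was called lower with KN046, at -1.15 (0.0331, and 0.212 with the pairs merged). Pigr, which carries polymeric antibody across epithelia and is also expressed by hepatocytes, was at 144 to 160 CPM in control mice and 0.0943 to 0.273 CPM in combination mice, beside the hepatocyte levels given above.

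**Figure D4:**
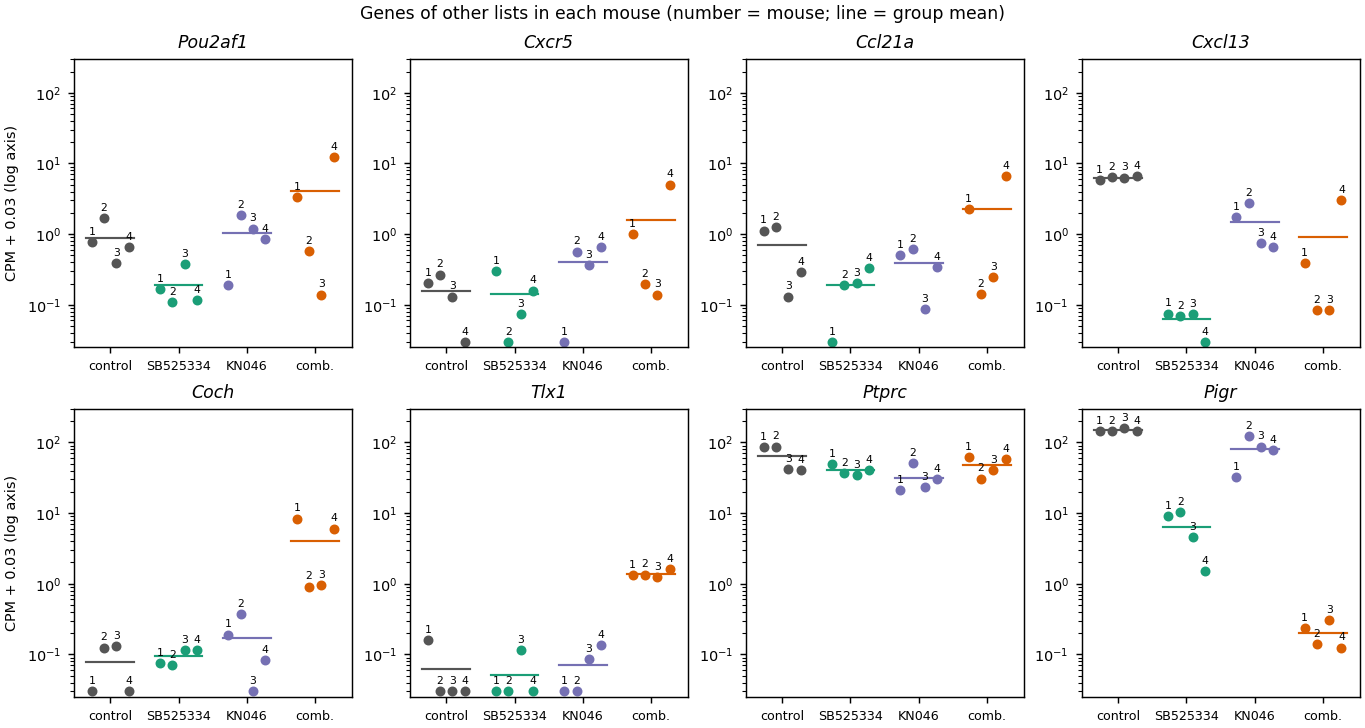
Level of 8 genes of other lists in each mouse, as CPM plus 0.03 on a log axis, with numbers for mice and lines for group means; the panels were chosen after the values were seen. Pou2af1, Cxcr5, Ccl21a and Coch are highest in combination mice 1 and 4, Tlx1 is near 1 CPM in all 4 combination mice, and Cxcl13 is near 0 in SB525334 mice.

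Markers of splenic tissue were also read, as the cells were injected into the spleen. Tlx1, a transcription factor of splenic mesenchyme, was at 1.28, 1.32, 1.2 and 1.56 CPM in combination mice and at 0 to 0.131 CPM in control mice, with a log2 fold change of 5.01 (edgeR adjusted p = 1.3e-04). Nkx2-5 was at 0.565, 0.607, 0.71 and 1.46 CPM in combination mice and at 0 counts in control mice (edgeR adjusted p = 6.7e-04). Nkx3-2, which was not tested, was at 0.513, 0.11, 0.437 and 0.754 CPM in combination mice and at 0 counts in all others. Both Tlx1 and Nkx2-5 were still called with the control pairs merged and without combination mouse 4. They passed the filter on low counts only through the combination mice, where they are high, so these calls add no support beyond the levels. Tcf21, the other gene of this list, was at 0.947 to 2.35 CPM in control mice and 0.497 to 1.13 in combination mice (log2 fold change -0.89, edgeR adjusted p = 0.272), and fell with SB525334 (-1.63, 0.0352, and 0.102 with the control pairs merged). Combination mouse 4 was the highest combination mouse for all 4 of these genes. The summed level of the 4 splenic mesenchyme genes was 0.947 to 2.35 CPM in control mice, 0.258 to 0.646 in SB525334 mice, 0.533 to 2.19 in KN046 mice and 2.54 to 4.9 in combination mice. Coch, of the follicular dendritic cell list, was at 8.32, 0.883, 0.928 and 5.99 CPM in combination mice, with a log2 fold change of 6.22 (edgeR adjusted p = 1.1e-04). It too passed the filter only through the combination mice. The part of splenic tissue in the combination result was not tested. Of 8 T cell genes 5 were called lower in KN046 mice against control, and 7 were called in the interaction. Among all tested genes 4.0% and 4.28% were called there. With the control pairs merged 0 of the 5 and 5 of the 7 were still called. The summed level of the 8 T cell genes was 37 to 46.7 CPM in control, 8.55 to 22.8 in KN046 and 32.6 to 69.1 in combination mice.

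Of 5 marginal zone genes, Cd1d1, a lipid antigen presenter also expressed by hepatocytes, was lower with SB525334 (log2 fold change -1.49, edgeR adjusted p = 1.2e-04) and with the combination (-1.76, 1.6e-05). Of 6 B cell precursor genes 1 was tested, Dntt, with a log2 fold change of -3.56 with SB525334 (edgeR adjusted p = 0.0568). Of 6 leukocyte genes 3 were called lower with KN046, where 4.0% of all tested genes were called, and 0 with the control pairs merged. Ptprc had a log2 fold change of -1.03 with KN046 (edgeR adjusted p = 0.0644). All 10 hepatocyte genes were called lower with SB525334 and with the combination, where 9.61% and 11.1% of all tested genes were called. Of 5 epithelial genes 2 were called lower with SB525334 (Krt8 and Krt18) and 3 with the combination (these and Epcam). Mean Krt8 was 83.3 CPM in control, 16.2 in SB525334, 67.6 in KN046 and 0.27 in combination mice. Whether this was apart from the fall of hepatocyte RNA was not tested. None of the 3 tested plasmacytoid dendritic cell genes was called by edgeR in the comparisons with control; 2, Pacsin1 and Siglech, had an unadjusted p under 0.05 with SB525334, and Siglech had a log2 fold change of -2.56 (edgeR adjusted p = 0.214).

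The genes whose pattern was most like each of 2 members were named by Pearson's r of log2 CPM over the 16 mice, among 12838 genes with a mean of at least 1 CPM. All mice share 1 set of libraries and 4 treatments, so these values are descriptions. For Cd79a they were Pou2af1 (r = 0.838, Spearman's rho = 0.744), Slc4a1 (0.804, 0.720), Pla2g2d (0.802, 0.462), H2-Ob (0.774, 0.503) and Fcho1 (0.760, 0.718). Without combination mice 1 and 4 their r fell to 0.306 to 0.578. For Jchain they were Lck (0.921, 0.882), Cd2 (0.908, 0.918), Cd5 (0.892, 0.900), Gbp2 (0.889, 0.850) and Cyfip2 (0.885, 0.859), and without those mice r was 0.832 to 0.893. The first 3 of these are T cell genes.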

How the data were processed

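Total RNA of liver metastases was sequenced by the authors as mRNA libraries on an Illumina HiSeq X system. Per the submitters' processing notes and methods, reads were trimmed with Cutadapt 2.7, aligned to GRCm39 with HISAT2 2.2.1 and counted per gene with HTSeq 2.0.4; strand and multi-mapping settings are not given in the sources used here. Raw counts were deposited, and beside them the authors' normalized score, made with DESeq2 1.38.3. The deposited counts were tested in R 4.3.3 with edgeR 4.0.16 (TMM, filterByExpr with a minimum count of 10, quasi-likelihood fit over all 16 mice, Benjamini-Hochberg threshold 0.05). Alternatives were DESeq2 1.42.0, limma 3.58.1 on the deposited score (pseudocount 1), other scalings and filters, the study's thresholds (unadjusted p, fold above 2), merged control pairs, a replicate block and leaving out each mouse; for the list genes, merged pairs and leaving out combination mouse 4 were added after seeing the data. CPM used the TMM library sizes, and log2 CPM a prior count of 2. Each SE beside a log2 fold change was derived from that value and the F statistic of its edgeR test, in the fit over all 16 mice. Of 21959 identifiers 21770 were in GENCODE M39.

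On data simulated with 200 genes changed 4-fold in the combination against control, edgeR called 89.5% of them and 9 unchanged genes, among 13834 tested. The changed genes were drawn at random from all tested genes, so this rate does not carry over to genes as low and variable as the members. Replicate numbers showed no clear pairing of the mice. In 24 same-number pairs the correlations were -0.37 to 0.407 (median 0.0255), with 7 over 0.1. In 72 different-number pairs they were -0.397 to 0.398 (median -0.011), with 14 over 0.1. The labels do not say more on separate handling, so p-values measure the spread between these mice. Intervals cover counting error only. The genes and lists were chosen with earlier results of these data known. Named genes were the 8 members, up to 4 called genes of a list by smallest adjusted p, defining markers of other cell types, and the 5 genes most like Cd79a and Jchain; others were named after their values were seen. Some listed genes and promoters are not reported here.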

Additional observations from a re-analysis of the deposited data

Results flagged for a closer look

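In 4 of 32 groups of 4 mice, 1 mouse lay far from the others by Dixon's test at its 95% critical value. For independent, normally spread values about 1.6 would be found by chance. The test used CPM without logs, and genes in the same mice are not independent, so that rate need not hold here. These were KN046 mouse 2 for Ms4a1 at 1.26 CPM, SB525334 mouse 1 for Jchain at 5.47 CPM, KN046 mouse 4 for Jchain at 2.65 CPM and combination mouse 4 for Jchain at 67.2 CPM. The SB525334 effect on Jchain differed with and without KN046, by 6.02 on the log2 scale in the test of the interaction (edgeR adjusted p = 0.00477).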

How the results depend on the processing

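The number of the 7 tested genes called depended on the setting. With the study's thresholds, applied here to the edgeR tests, it was 2 for SB525334 against control (0 in the report) and 1 for KN046 against control (0). It was 5 for the combination against control (2), 5 for the combination against KN046 (2) and 4 for the interaction (1). The share of all tested genes past these looser thresholds is not given here, so these counts were not set against a background. DESeq2 gave 1 for KN046 against control and 2 for the interaction. Limma gave 1 for KN046, 0 for the combination against control, 1 against KN046 and 1 against SB525334 (5). The fit of the groups compared alone gave 0 for the combination against control and 1 against KN046. It gave 0 for the combination against SB525334 and 0 for SB525334 against KN046 (2). This fit filtered low counts anew. Ms4a1 was then not tested in the combination against KN046, Pax5 and Ms4a1 not against SB525334, and Pax5 and Fcer2a not between the single agents. Merged control pairs gave 0, 1 and 1 for the combination against control, the combination against KN046 and SB525334 against KN046. Total counts gave 1 for the combination against KN046, and a minimum mean of 1 CPM gave 0 for SB525334 against KN046. Pax5 and Fcer2a, the genes called there in the report, lay below that mean and so were not tested. The replicate block gave 1 for KN046 against control, 0 for the combination against control, 1 against KN046 and 3 against SB525334. The replicate numbers showed no clear pairing of the mice.

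Leaving out 1 mouse at a time gave 0 to 1 calls for KN046 against control, 0 to 4 for the combination against control, 1 to 4 against KN046, 1 to 6 against SB525334, 1 to 2 for SB525334 against KN046 and 1 to 2 for the interaction. Log2 fold changes that turned direction this way had no call: Cd79b with SB525334 ran from -0.89 to 0.04, Cr2 with SB525334 from -0.44 to 0.66, Ms4a1 with KN046 from -2.21 to 0.39, Cr2 with KN046 from -1.05 to 0.38 and Jchain with the combination from -0.03 to 1.84. The cause was not tested. Fcer2a, Cr2 and Mzb1 are limited by their low counts.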
